A study of Anas platyrhynchos with 6 samples.

Results

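Genes that process RNA gave 224 back-splice junctions in duck embryonic breast muscle, from 74 genes, among 14917 junctions in all and 4129 genes with circles. A gene was taken as a member when its description names RNA binding, splicing, a ribonucleoprotein, a DEAD-box or DEAH-box helicase, a serine and arginine rich protein, muscleblind or poly(A), and names neither a zinc finger nor a kinase. RBFOX1 was left out. The rule uses no measured value, but it was set with earlier results of these data known. The tissue was pectoral muscle from female embryos of the Shan Ma duck, 3 libraries from embryonic day 13 (E13), when most myoblasts are still undifferentiated, and 3 from embryonic day 19 (E19), when nearly all have differentiated and fused. Both stages received the same preparation, in which ribosomal RNA was removed and linear RNA digested with RNase R, so no linear RNA of these genes was measured. The value of a circle is its number of back-splice reads, which are reads that join a downstream exon end to an upstream exon start. SRPBM is that number scaled to the mapped bases of the library, candidate back-splice reads included. The muscle is a mixture of cells, and in such bulk samples fewer cells of a type and less RNA per cell cannot be told apart.

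Circular RNAs form when the spliceosome joins exons backwards, and RNA binding proteins that sit in the flanking introns can favour or hinder this step. Quaking (QKI) is known from human cells to promote circle formation, and in the fly muscleblind does so on its own transcript. Members of the RBFOX, muscleblind and quaking families also set the alternative splicing of muscle transcripts as fibres mature.

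The libraries held 35892 to 69164 back-splice reads once listings of the same junction were joined, fewest in E13 replicate 2 and most in E19 replicate 2. Marker genes were matched by symbol, and genes listed without a symbol were not searched, so a marker at 0 may still have circles. Muscle was represented by circles of 6 of 14 marker genes, whose summed reads were 94 to 124 at E13 and 169 to 331 at E19, without overlap. TTN, NEB, MYH1 and RYR1 were among the markers with no reads under their symbols. Nerve and Schwann cell markers had circles from 2 of 6 genes, with 47 to 109 reads at E13 and 149 to 209 at E19, and SOX10 and ERBB3 were among the defining genes with none. Connective tissue (3 of 10 genes, COL1A1 and PDGFRA among those at 0), endothelium (2 of 5, PECAM1 and CDH5 at 0) and blood markers (2 of 4, PTPRC at 0) gave at most 22, 4 and 6 reads in any library. The part of these cell types in the values below was not tested. The files give no name for their genome build, so positions are printed as the files list them.

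Circles of RNA processing genes carried 2536 reads, 0.802% of all back-splice reads. The shares were 0.727%, 0.736% and 0.877% in the 3 E13 libraries and 0.914%, 0.743% and 0.821% in the 3 E19 libraries. The means were 0.780% ± 0.0841 at E13 and 0.826% ± 0.0854 at E19 (SD, n = 3 each), and the stages overlapped. The lowest share had a 95% Wilson interval of 0.661% to 0.799% and the highest one of 0.839% to 0.995%. Such intervals cover counting error only.

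The reads were concentrated in a few genes. DHX15, RBFOX2, IGF2BP3, QKI and STAU2 together held 1586 reads, 62.5% of the total. At the other end, 44 genes had fewer than 10 reads and 29 were seen in a single library, and only 12 genes had reads in all 6 libraries. Of the junctions, 7 (3.13%) were found in all 6 libraries and 152 (67.9%) in 1 library, beside 6.36% and 64.5% of all 12912 junctions in genes.

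In build, these circles were close to the others in genes. Exonic circles made up 186 of the 224 junctions (83.0%, against 87.8% of all in genes), and the other 38 were intronic. The median circle held 3 exons, as over all genes, and 442.5 bases against 452. Circles that start at exon 2 were 41 of the 176 with exon numbers (23.3%, against 23.7%) and took 40.4% of the reads of those circles, against 42.4%. Most of these member reads, 592, came from a single DHX15 circle (circRNA1485), so the match in reads rests on that circle. Exon 1 was contained in 8 of these 176, against 593 of 10179 over all genes. A circle of PAPOLA, the nuclear poly(A) polymerase, ran from exon 2 to exon 23.

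Between the stages, no circle of an RNA processing gene passed the test. Of the 37 member junctions with at least 10 reads over the 6 libraries, 0 had an adjusted p under 0.05 in edgeR's quasi-likelihood test with Benjamini-Hochberg adjustment over all 3519 tested junctions, of which 0.995% passed. Of the 30 member genes tested on the summed reads of their circles, 0 passed, against 2.08% of 1825 genes. DESeq2 and limma voom also gave 0 member calls at both levels. The totals of these fits over all genes, and of limma voom over all junctions, are not given here. Those 0 counts thus have no share beside them. In edgeR 1 member junction and 1 member gene had an unadjusted p under 0.05, against 8.64% of all tested junctions and 11.8% of all tested genes. The smallest adjusted p was 0.440 for a junction and 0.184 for a gene.

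With the looser thresholds of the study, a change of at least 1 on the log2 scale in either direction with an unadjusted p of at most 0.05, 1 member junction and 1 member gene passed, both from IGF2BP3 and both higher at E19. Over everything tested, 8.5% of junctions and 11.2% of genes passed these thresholds. The stages did not overlap for 3 of the 37 tested member junctions, in RBFOX2, QKI and IGF2BP3 and all higher at E19, where 14.4% of all tested junctions did not overlap. They did not overlap for 4 of the 30 tested member genes (RBFOX2, IGF2BP3 and PUM2 higher at E19, HNRNPR lower), where 15.6% of all tested genes did not.

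The log2 change from E13 to E19 was positive for 17 of the 30 genes and 20 of the 37 junctions, against 1070 of 1825 and 2040 of 3519 over all. The median was 0.19 over the member genes and 0.03 over the member junctions. All tested genes and all tested junctions had a median of 0.25 when scaled to mapped reads, so a change of that size was that of the typical circle. TMM scaling brought the median of all genes to 0.03, and scaling to total back-splice reads brought it to -0.04. Positive changes then numbered 15 member genes and 17 member junctions with TMM, and 14 and 16 with total back-splice reads.

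**Figure D1:**
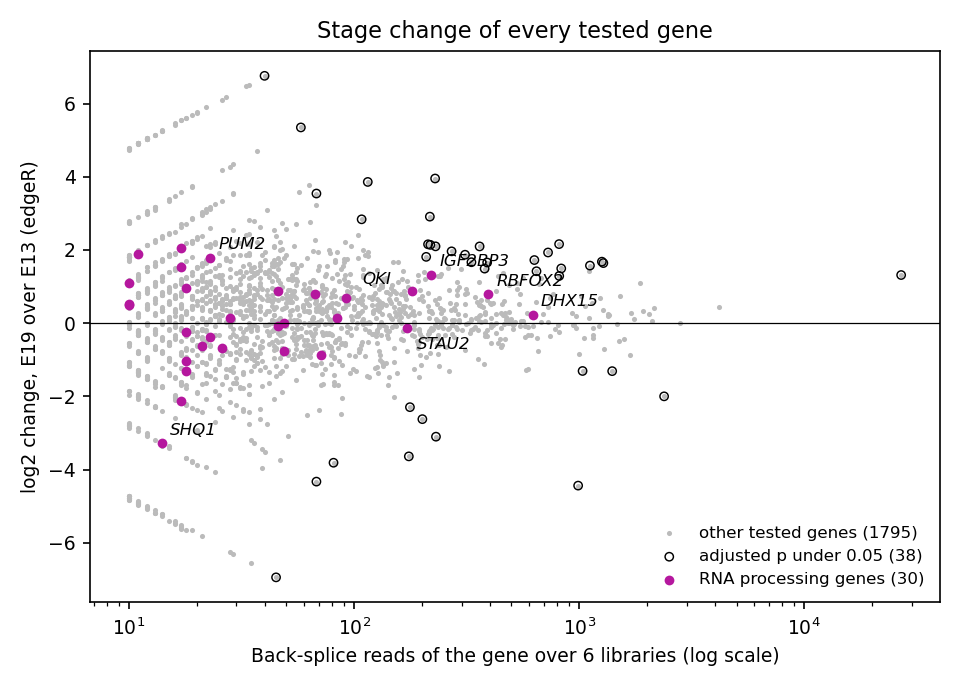
Each point is 1 of 1825 tested genes, placed by its back-splice reads over 6 libraries (log axis) and its log2 change from E13 to E19 in the edgeR fit. The 30 RNA processing genes are filled in magenta and lie among the grey points of the other genes, and none carries the black ring of the 38 genes with an adjusted p under 0.05.

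Helicases unwind RNA in splicing, ribosome assembly and decay. The 13 helicase genes had 319 reads at E13 and 383 at E19, and DHX15 alone held 621 of the 702. DHX15 encodes the helicase that takes the spliceosome apart after splicing. Its circles had 106, 64 and 113 reads in the E13 libraries and 124, 100 and 114 in the E19 libraries. The low value was E13 replicate 2, the library with the fewest back-splice reads, and the stages overlapped. The means were 23.1 ± 5.56 SRPBM at E13 and 27.2 ± 2.73 at E19 (SD, n = 3 each), and the log2 change was 0.23 with an SE of 0.36 (adjusted p = 0.952 in edgeR).

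A single molecule made up nearly all of it. The DHX15 circle of exons 2 to 6 (circRNA1485, chr4:35568823-35574895 on the minus strand, 841 bases) held 95.3% of the reads of 10 circles, with 102, 61 and 107 reads at E13, and 110, 100 and 112 reads at E19. The remaining 9 circles had 12 reads or fewer each. DDX10, a helicase of ribosome assembly, had few reads, 0, 1 and 2 at E13 and 7, 6 and 1 at E19 (log2 change 2.06, adjusted p = 0.875). Its circRNA11461 was seen only at E19, with 6, 6 and 0 reads, 3.91-fold higher when E13 is set to 3 reads over the stage. Such folds, here and below, leave out the counting error of the stage with reads and the spread between libraries. DDX5, which acts in splicing and transcription, had 11, 1 and 1 reads at E13 and 0, 8 and 0 at E19, so a single library held most of its reads in each stage.

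**Figure D2:**
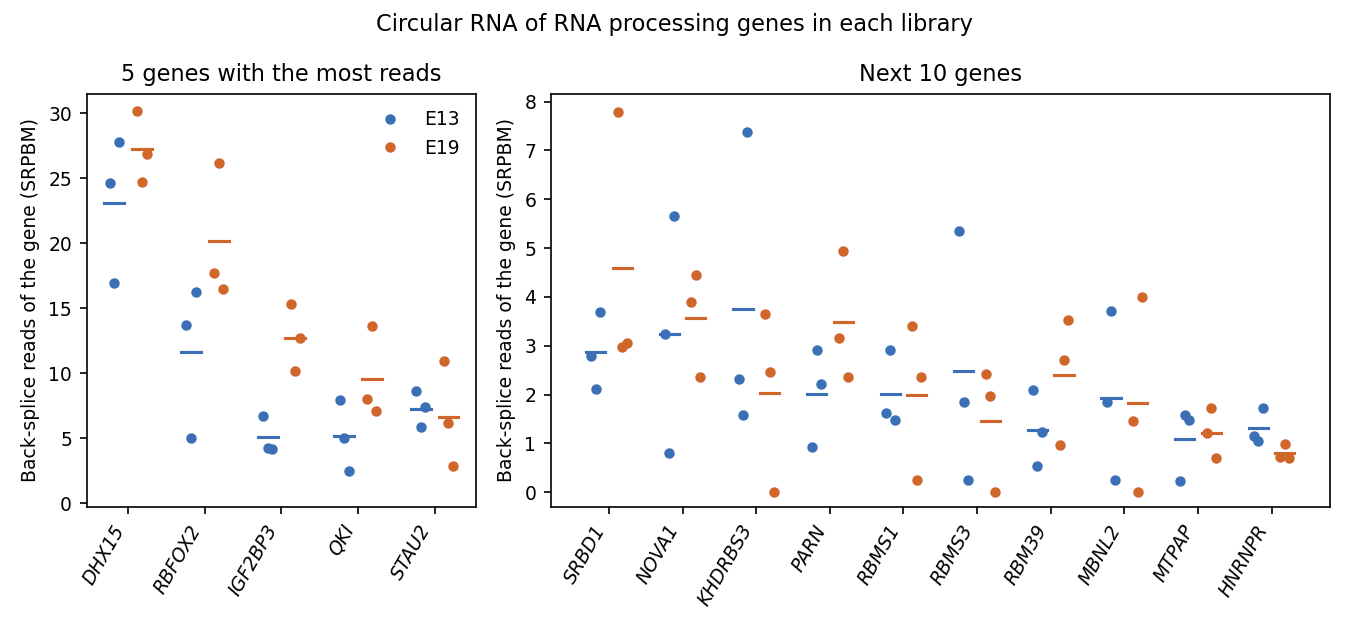
Summed back-splice signal in SRPBM of the 15 RNA processing genes with the most reads, with 1 point per library (blue E13, orange E19) and a bar at the mean of each stage. DHX15 lies highest in both stages (means of 23.1 and 27.2 SRPBM), and of the 5 genes on the left RBFOX2 and IGF2BP3 have every E19 library above every E13 library.

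RBFOX2 and QKI bind short motifs beside alternative exons, and both are splicing regulators of muscle. RBFOX2 circles had 59, 19 and 66 reads at E13, and 73, 106 and 70 reads at E19. Every E19 library was above every E13 library, though the nearest pair, 66 and 70 reads, was close. Scaled to total back-splice reads the stages overlapped, with 66 of 46544 in E13 replicate 3 and 73 of 57675 in E19 replicate 1. The means were 11.7 ± 5.87 SRPBM at E13 and 20.1 ± 5.28 at E19, and the log2 change of 0.78 (SE 0.42) had an adjusted p of 0.463.

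Of the 11 RBFOX2 junctions, the circle of exons 10 to 12 (circRNA4804, chr1:54211263-54224552 on the plus strand) held 78.9% of the reads. It had 48, 16 and 50 reads at E13 and 54, 85 and 57 at E19 (log2 change 0.78, SE 0.47, adjusted p = 0.509). The stages were again apart when scaled to mapped reads and overlapped when scaled to total back-splice reads. A second set of 7 circles began at exon 3 and ended at different exons, with 68 reads together. RBFOX2 thus gave an abundant circle and a series of rare ones that share their first exon.

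QKI circles had 34, 19 and 10 reads at E13, and 33, 55 and 30 reads at E19. The stages overlapped through E13 replicate 1. The means were 5.13 ± 2.72 and 9.56 ± 3.52 SRPBM, and the log2 change was 0.89 (SE 0.52, adjusted p = 0.557). The circle of exons 2 and 3 (circRNA4820, chr3:45709633-45733706 on the minus strand, 260 bases) carried 76.2% of the reads, with 22, 15 and 8 at E13 and 27, 44 and 22 at E19. The highest E13 library and the lowest E19 library both had 22 reads, so the stages are apart only after scaling, and the log2 change was 1.03 (SE 0.60, adjusted p = 0.476).

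QKI also gave 4 intronic circles. The most read of these, ciRNA319, runs from the first base of exon 2 into the next intron, shares its end position with the circle of exons 2 and 3, and had 6, 4 and 0 reads at E13 and none at E19. With E19 set to 3 reads over the stage it was 3.41-fold lower there. Its 10 reads came from 2 libraries, so the absence at E19 is near the limit of this depth.

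Muscleblind proteins switch splicing from the embryonic to the adult pattern in muscle. MBNL2 had the most reads, 8, 14 and 1 at E13 and 6, 0 and 17 at E19 (log2 change -0.08, adjusted p = 0.989). Its main circle (circRNA2861) consists of exon 1 alone, 814 bases, with 4, 10 and 1 reads at E13, and 4, 0 and 17 reads at E19. Libraries of the same stage thus differed more from each other than the stages did. MBNL3 had 0, 2 and 0 reads at E13 and 6, 1 and 2 at E19 (log2 change 1.90, adjusted p = 0.920), and muscleblind 1 had 3 reads in a single library.

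IGF2BP3 binds mRNAs such as that of insulin-like growth factor 2, controls their stability and translation, and is mostly an embryonic protein. Its circles had 29, 16 and 17 reads at E13, and 63, 41 and 54 reads at E19. All 3 E19 libraries were above all 3 E13 libraries. The means were 5.05 ± 1.46 SRPBM at E13 and 12.7 ± 2.59 at E19, and the log2 change was 1.32 (SE 0.48, unadjusted p = 0.00777 in the edgeR fit across all genes, adjusted p = 0.184). This was the smallest adjusted p among the RNA processing genes and it missed the threshold of 0.05. Over 17 other settings the log2 change lay between 1.08 and 1.59, the adjusted p was at least 0.110, and the gene stayed past the looser thresholds in each of them.

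The IGF2BP3 reads were divided over 5 circles, with log2 changes of unlike size. The circle of exons 5 to 9 (circRNA2127, chr2:33334920-33342042 on the minus strand, 811 bases) had 29, 12 and 13 reads at E13 and 37, 20 and 29 at E19, which overlap (log2 change 0.65, SE 0.59, adjusted p = 0.862). The circle of exons 5 to 8 (circRNA6136, chr2:33336801-33342042, 679 bases), which has the same start and lacks exon 9, had 0, 4 and 4 reads at E13 and 14, 12 and 15 at E19 (log2 change 2.24, SE 1.14, adjusted p = 0.440). The stages were apart in this shorter circle and not in the longer one, and the difference between the circles was not tested.

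Other IGF2BP3 circles had few reads or none at E13. The circle of 116 bases at chr2:33350670-33350874 (circRNA11419), whose first exon is that of the exon 3 to 9 circle, had 0 reads in each E13 library and 12, 4 and 0 at E19. It was 5.22-fold higher at E19 with E13 set to 3 reads over the stage. This circle was the member junction past the looser thresholds (unadjusted p = 0.0453 in the edgeR fit, adjusted p = 0.440). With DESeq2 or limma voom that place was taken by the circle of exons 5 to 8. The circle of exons 3 to 9 (circRNA13601, 927 bases) had no reads at E13 and 0, 4 and 10 at E19 under the listing used, while its other listing had 0, 0 and 2 at E13 and 8, 0 and 0 at E19.

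Outside the circle of exons 5 to 9, IGF2BP3 thus had 0 of 29, 4 of 16 and 4 of 17 reads at E13 and 26 of 63, 21 of 41 and 25 of 54 at E19. As shares these were 0%, 25.0% and 23.5% at E13 and 41.3%, 51.2% and 46.3% at E19. The shares do not overlap. They leave out the other listing of the exon 3 to 9 circle, with 2 reads in E13 replicate 3 and 8 in E19 replicate 1. The 95% Wilson interval of the highest E13 share, 10.2% to 49.5%, overlaps that of the lowest E19 share, 30.0% to 53.6%, while that of E13 replicate 1, 0% to 11.7%, lies below those of all 3 E19 libraries. This split was chosen after its values were seen and was given no test.

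**Figure D3:**
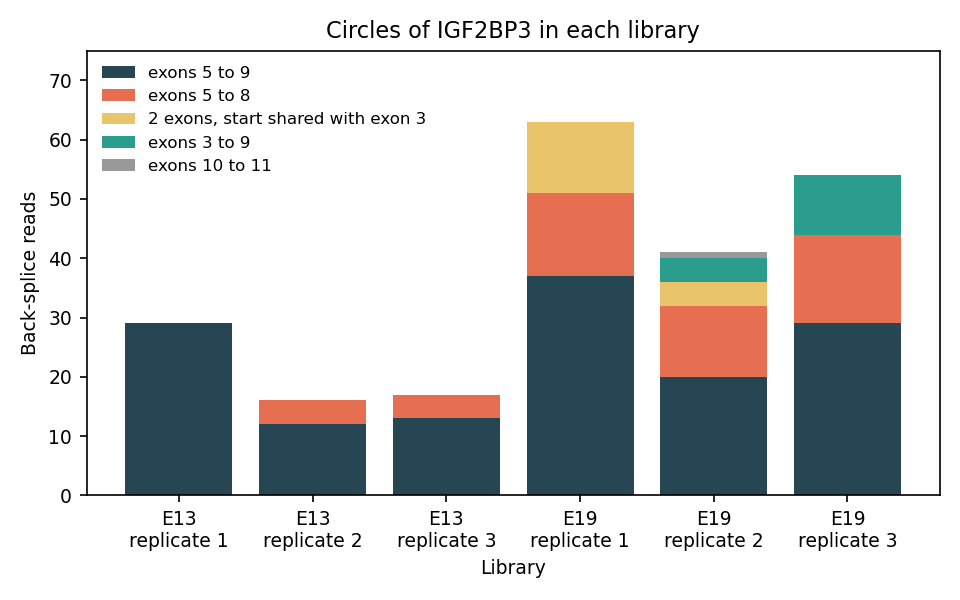
Back-splice reads of the IGF2BP3 circles in each of 6 libraries, stacked by the exons the circle holds. The dark part (exons 5 to 9) is 12 to 29 reads at E13 and 20 to 37 at E19. Under the listings used, the parts stacked on it sum to 0 to 4 reads at E13 and 21 to 26 at E19.

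STAU2 binds double-stranded RNA and carries mRNAs through the cytoplasm. Its circles had 37, 22 and 30 reads at E13 and 45, 25 and 12 at E19 (7.27 ± 1.38 and 6.65 ± 4.07 SRPBM, log2 change -0.13, SE 0.53, adjusted p = 0.975). The gene was spread over 9 circles, and its most read circle held only 34.5% of the reads. At E13 the most read was that of exons 7 to 10 (circRNA3294) with 18, 8 and 6 reads, beside 27, 0 and 0 at E19. At E19 it was the circle of exons 3 and 4 (circRNA3295) with 11, 19 and 5 reads, beside 8, 4 and 12 at E13. All E19 reads of circRNA3294 came from replicate 1, and its log2 change of -0.25 became -6.42 without that library (adjusted p = 0.294). Its other listing had 0, 8 and 5 reads at E13 and 0, 3 and 0 at E19.

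**Figure D4:**
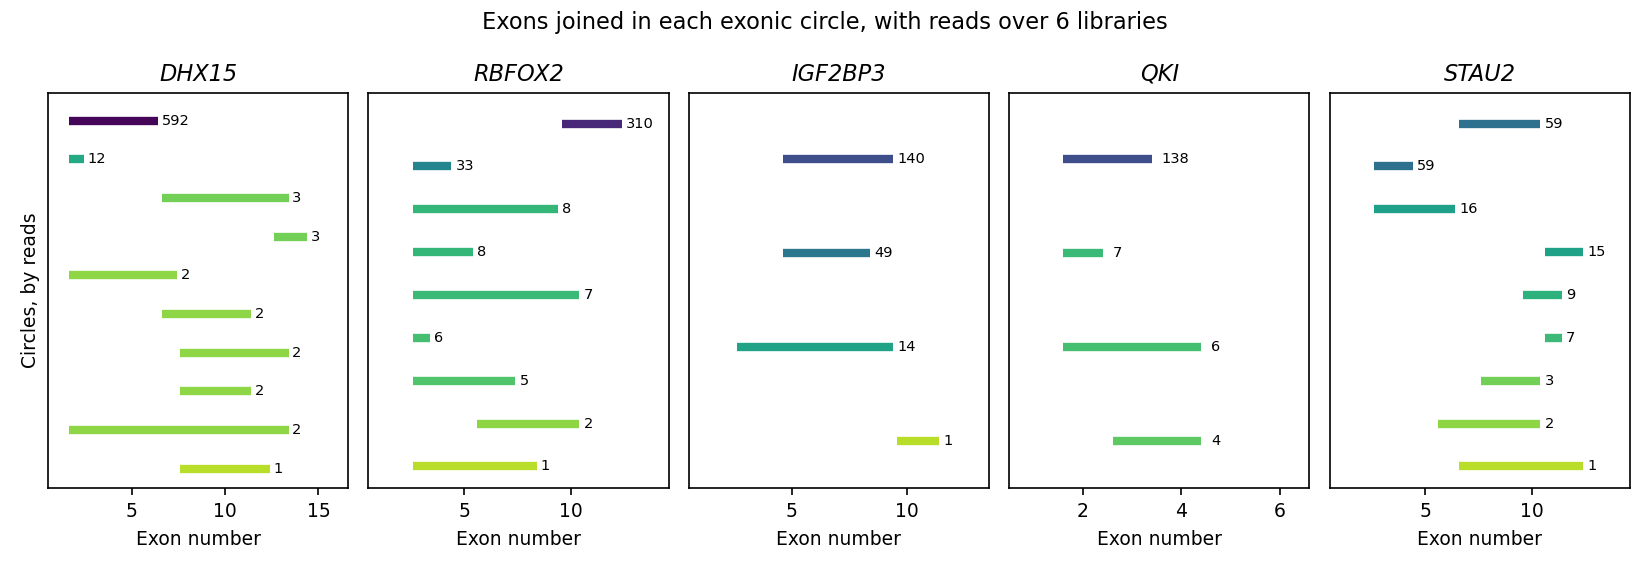
Exonic circles of the 5 RNA processing genes with the most reads, drawn as bars over the exon numbers they span. The reads over 6 libraries stand beside each bar, and darker bars have more reads. Exon numbers are those of the transcript each circle is listed under, and transcripts of a gene can number differently. The STAU2 circles circRNA3295 (exons 3 and 4) and circRNA6293 (exons 3 to 6) share their downstream end, not their first exon. Circles without exon numbers are not drawn, which leaves out circRNA11419 of IGF2BP3 and leaves 9 RBFOX2 circles. DHX15, RBFOX2 and QKI each have a single dominant circle (592, 310 and 138 reads). IGF2BP3 has circles of 140 and 49 reads that share exon 5 as start, and STAU2 has 2 circles of 59 reads each.

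KHDRBS3, a splicing regulator of the STAR family like QKI, had 10, 6 and 30 reads at E13 and 15, 10 and 0 at E19 (log2 change -0.88, adjusted p = 0.904). Its circle of exons 3 and 4 (circRNA6323) had 0, 2 and 10 reads at E13 and none at E19, 4.09-fold lower with E19 set to 3 reads over the stage. The other listing of this circle had 2, 0 and 10 reads at E13 and none at E19. SRBD1 had the most circles of any member, 12, with 12, 8 and 15 reads at E13 and 32, 12 and 13 at E19 (log2 change 0.67, adjusted p = 0.912). The high library came from its circle of exons 14 and 15 (circRNA4920), which had 22 reads in E19 replicate 1, 0 in replicate 2 and 9 in replicate 3, against 3, 0 and 9 at E13. The other listing of this circle had 3, 0 and 7 reads at E13 and 11, 0 and 3 at E19, so the height of that library depends on the listing used.

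PUM2, a repressor of translation that binds 3′ untranslated regions, had 4, 1 and 0 reads at E13 and 4, 10 and 4 at E19 over 8 circles. The mapped-read scaling puts its E19 libraries just above those of E13 in spite of the shared count of 4 (log2 change 1.79, SE 1.66, adjusted p = 0.879). BICC1, another translational repressor, had 11, 0 and 2 reads at E13 and 0, 0 and 5 at E19 (log2 change -1.31, adjusted p = 0.948). ELAVL1, which stabilises mRNAs with AU-rich elements, had 0, 10 and 2 reads at E13 and 2, 4 and 0 at E19 (log2 change -1.03, adjusted p = 0.959). Each of these genes has a library with no reads in at least 1 stage.

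Among the splicing factors, NOVA1, best known as a splicing regulator of neurons, gave 84 of 101 reads. Its circles had 14, 3 and 23 reads at E13 and 16, 18 and 10 at E19 (log2 change 0.13, adjusted p = 0.981), mostly in the circle of exons 3 and 4 (circRNA1225). SF3B1, SF3A1 and SF3A3 of the U2 particle had 3, 2 and 2 reads. The serine and arginine rich genes SRSF11, SRSF5 and PNISR had 10 reads together, and no gene of that group could be tested. The 7 hnRNP genes, whose proteins coat nascent transcripts, had 26 reads at E13 and 16 at E19. Of these HNRNPR was the only one tested, with 5, 4 and 7 reads at E13 and 3, 4 and 3 at E19 (1.31 ± 0.356 and 0.808 ± 0.157 SRPBM, log2 change -0.68, adjusted p = 0.959). Both stages have a library of 4 reads, so here too the stages are apart only after scaling.

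The RNA binding motif genes held 87 reads at E13 and 95 at E19. RBMS1 had 7, 11 and 6 reads at E13 and 14, 1 and 10 at E19 (2.01 ± 0.793 and 2.00 ± 1.61 SRPBM, adjusted p = 1.00). Its main circle joins exons 3 to 6 (circRNA3530) and had 5, 11 and 6 reads at E13, and 9, 0 and 5 reads at E19. The other listing of this circle had 0, 11 and 0 reads at E13 and 0, 0 and 3 at E19. RBMS3 had 23, 7 and 1 reads at E13 and 10, 8 and 0 at E19 (log2 change -0.75, adjusted p = 0.952), and its circle of exons 8 and 9 (circRNA4715) had 11, 4 and 0 against 0, 6 and 0. Under its other listing that circle had 5, 0 and 0 reads at E13 and none at E19. RBM39, a splicing coactivator, had 9, 2 and 5 reads at E13 and 4, 11 and 15 at E19 (log2 change 0.88, adjusted p = 0.930). Of its 46 reads 41 came from intronic circles, which were 5 of its 6 junctions.

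Genes of the poly(A) tail had 61 reads at E13 and 70 at E19. PARN, a nuclease that shortens poly(A) tails, had 4, 11 and 9 reads at E13 and 13, 20 and 10 at E19 (log2 change 0.79, adjusted p = 0.920). An intronic circle of 190 bases (ciRNA218, chr15:17309292-17309481) held 57 of its 67 reads, with 3, 10 and 9 at E13 and 13, 12 and 10 at E19. It is listed on the minus strand while the other 3 PARN circles are on the plus strand, so its assignment to PARN is uncertain. PAN3, a subunit of another deadenylase, had 0, 5 and 9 reads at E13 and 0, 3 and 0 at E19 (log2 change -2.12, adjusted p = 0.873). MTPAP, the poly(A) polymerase of mitochondria, had 1, 6 and 6 against 5, 7 and 3 (log2 change 0.15, adjusted p = 0.989).

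Both tested genes among the other ribonucleoprotein parts have a role in H/ACA particles or their assembly, and these particles guide pseudouridylation of ribosomal RNA. SHQ1, an assembly factor, had 3, 0 and 10 reads at E13 and 0, 1 and 0 at E19 (log2 change -3.27, SE 2.21, adjusted p = 0.702). Its circle of exons 8 to 11 (circRNA59) had 3, 0 and 10 reads at E13 and none at E19, 4.43-fold lower with E19 set to 3 reads over the stage. The other listing of this circle had 0, 6 and 0 reads at E13 and none at E19, and the values of the gene leave those reads out. GAR1, a core protein, had 0, 4 and 0 reads at E13 and 9, 4 and 0 at E19 (log2 change 1.53, adjusted p = 0.930), all in a single circle.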

How the data were processed

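Reads were trimmed (Cutadapt), mapped (Bowtie 2, TopHat 2) and searched for back-splice junctions by the authors, with the versions and the genome's build unnamed in the sources used here. The deposited counts are unnormalised back-splice reads. The SRPBM signal was computed by the authors from the counts and mapped bases. Sheets of the authors' fold changes and p-values were not used.

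Rows with the same chromosome, end and strand and starts 1 base apart were joined as a junction (1714 rows, 30 member junctions), keeping the listing with more reads, so reads under the other listing are left out. Genes were summed by identical description. Junctions and genes with at least 10 reads were tested with edgeR 4.0.16 (R 4.3.3, quasi-likelihood, mapped reads as library size, Benjamini-Hochberg). The SE is the log2 change over the square root of F. Alternatives used limma 3.58.1 voom and DESeq2 1.42.0. The method was also run on simulated counts with the same spread setting for every junction, which does not show how it behaves on these data. The libraries of a stage came from separate embryos.

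Members and lists were chosen with earlier results of these data known. Named genes are the 15 with most reads, the 5 smallest p-values in each direction, the top gene of each role group and the 5 with most junctions, or whose top circle changes. Named junctions are the 10 with most reads and the 5 smallest p-values in each direction. Other genes and circles were named for their structure or group after their values were seen. Some marker genes are not reported here by name, and the counts include them.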

Additional observations from a re-analysis of the deposited data

How the results depend on the processing

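Calls at an adjusted p under 0.05 stayed at 0 for RNA processing genes and junctions under every alternative. The edgeR fit above called 0.995% of all tested junctions and 2.08% of all tested genes, so 0 calls among so few members is near those shares. Over all junctions the 35 became 18 with total back-splice reads, 69 with DESeq2, 10 with at least 20 reads and 54 with rows not joined. With a library left out they became 2 to 19. Over all genes the 38 became 17 with at least 20 reads and 9 to 20 with a library left out. Totals under some other alternatives are not given here, so those 0 counts have no share beside them. Past the looser thresholds, the 1 junction became 0 with TMM, with total back-splice reads, with at least 20 reads, with rows not joined and with the replicate block, 2 without a filter on low counts, and 0 to 2 with a library left out. Taking the larger listing in each library, an alternative chosen after seeing the data, gave 4 of 38 tested member junctions. These were circRNA11419, circRNA6136, circRNA59 and circRNA6323, the last 2 lower at E19. The shares of all tested junctions and genes past the looser thresholds under these alternatives are not given here. Genes past those thresholds were 1 to 2 with a library left out, QKI joining without E13 replicate 1 and RBFOX2 without E13 replicate 3. Restricted to junctions of at least 10 reads, the shares were 0.682% at E13 and 0.735% at E19. The share by summed reads of both listings equals that of rows not joined and was not run separately.

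Of 655 alternative values for named genes and circles, 33 changed sign and 0 passed 0.05. With total back-splice reads DHX15 was at -0.0287 and its circRNA1485 at -0.0296 on the log2 scale. With TMM, total reads and DESeq2, NOVA1 was at -0.0760, -0.152 and -0.0784, circRNA1225 at -0.13, -0.24 and -0.13, and MTPAP at -0.18, -0.29 and -0.19. RBMS1 was at 0.00237 with SRPBM denominators and 0.000517 with the larger listing. With a library left out, the log2 change ranged from -0.69 to 0.23 for STAU2, -0.32 to 0.79 for NOVA1, -1.59 to 0.0538 for KHDRBS3, -0.61 to 0.52 for RBMS1, -1.31 to 0.48 for RBMS3, -1.37 to 0.76 for MBNL2, -0.32 to 0.50 for MTPAP, -6.42 to 0.33 for circRNA3294, -0.0302 to 0.95 for circRNA3295 and -0.37 to 0.93 for circRNA1225. The cause was not tested. Without a change of sign, over all alternatives GAR1 ranged from 0.97 to 5.18, BICC1 from -5.10 to -0.77, PAN3 from -5.31 to -1.58, SHQ1 from -5.16 to -1.92, SRBD1 from 0.07 to 0.91, circRNA4715 from -5.35 to -0.08 and circRNA4920 from 0.12 to 2.69. Same-numbered libraries did not deviate together (r of -0.03 to -0.06). Counting error is large at these depths, so such values cannot decide whether the numbers pair the samples. The replicate block moved the calls over all genes from 38 to 30.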

Other observations

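Among RNA processing genes that the descriptions miss, none was called either. Of 81 such genes, matched by symbol, 45 had circles under their symbols and 19 were tested. Of the 19, 0 had an adjusted p under 0.05 in edgeR, against 2.08% of all 1825 tested genes. Among so few genes a count of 0 is near that share. The log2 change was positive for 13 of the 19, against 1070 of 1825 over all. The median change was 0.34, against 0.25 over all. The most read were PTBP2, a splicing repressor, with 81, 48 and 34 reads at E13 and 90, 82 and 68 at E19 (log2 change 0.54, adjusted p = 0.770), and CPEB3, a regulator of polyadenylation and translation, with 80, 26 and 65 against 53, 82 and 76 (log2 change 0.30, adjusted p = 0.943). The stages did not overlap for 4 of the 19, beside 15.6% of all tested genes, and these 4 are given as values. FMR1, the fragile X protein that represses translation, had 3, 6 and 5 reads at E13 and 23, 8 and 11 at E19 (log2 change 1.51, adjusted p = 0.646), and FTO, an RNA demethylase, had 14, 13 and 14 against 10, 4 and 0 (log2 change -1.55, adjusted p = 0.670). ZC3H13, part of the complex that adds methyl groups to adenosine, had 7, 1 and 3 reads at E13 and none at E19 (log2 change -4.90, unadjusted p = 0.0493 in the edgeR fit, adjusted p = 0.420). It was the 1 gene of the 19 past the looser thresholds, which 11.2% of all tested genes passed. SMG1, a kinase of nonsense-mediated decay, had 5, 7 and 4 against 2, 0 and 3 (adjusted p = 0.907).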
